A study of Homo sapiens with 18 samples.

Results

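The genes described here are 30 genes of cholesterol and fatty acid synthesis, taken by name from the mevalonate pathway, the sterol pathway that follows it, the fatty acid pathway and the SREBP system that controls all of these. Of the 30, 27 were among the 19775 genes that the array reads with a probe set of their own, and 26 of these were among the 13008 genes bright enough to be tested. By role, the list held 7 mevalonate genes, 11 sterol genes, 8 fatty acid genes, and 4 regulators and carriers. MVD, which makes isopentenyl diphosphate, was at the intensity floor on 17 of 18 arrays and was not tested, while no probe set named FDFT1, and CYP51A1 and FADS1 were read only by probe sets that carry several gene symbols. Each gene was read by its brightest probe set over all arrays.

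The study measured RNA of human melanoma lines on 18 Affymetrix HG-U133 Plus 2.0 arrays, on which short oligonucleotide probes near the 3' end of a transcript report its abundance as an intensity. The lines were SKMEL5, WM2664 and A375, grown in RPMI with fetal bovine serum, and each received DMSO, the solvent control, or A-485, a catalytic inhibitor of the histone acetyltransferases p300 and CBP, for 6 h or 24 h. Each line had 2 DMSO arrays and 1 A-485 array at each time, which gave 12 groups, and the A-485 dose is labelled 3 mM, a unit that was not checked. The series text speaks of sensitive and resistant lines without naming them, and each line is a single established culture. Nothing in the labels says that the DMSO arrays of a group came from separate cultures, so the p-values measure only how these samples spread, and that spread may be technical. A group of A-485 is 1 array and is assumed to vary like the DMSO pairs.

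Cells make cholesterol from acetyl-CoA through the mevalonate pathway, squalene and lanosterol, and they make fatty acids from the same acetyl-CoA through malonyl-CoA. Transcription of both pathways is driven by the SREBP proteins, which are held in the endoplasmic reticulum by INSIG proteins when sterols are plentiful and are released for cleavage when sterols are scarce. SREBF1 encodes the form best known for fatty acid genes and is itself a target of the liver X receptor, SREBF2 encodes the form best known for sterol genes, and proliferating tumour cells use both products for membranes.

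Intensities are given after quantile scaling between arrays, with values under a floor of 32 set to 32, and differences are on the log2 scale with the standard error (SE) of limma, so that -1 is a halving. Calls were made where the adjusted p was under 0.05 (limma, Benjamini-Hochberg over the 13008 genes of a comparison). DMSO replicates correlated at 0.989 to 0.994 over genes. Of 7 melanocyte lineage markers on the array, 7 were above the floor by their median over arrays in SKMEL5 and in WM2664 and 3 in A375. There MLANA, TYR, TYRP1 and S100B had medians at the floor, though all were above it on A375 6 h DMSO replicate 1, and their summed intensity above the floor was 37371 to 48517 in SKMEL5, 18061 to 34522 in WM2664 and 264 to 1719 in A375. Of 5 adipocyte and hepatocyte markers, PLIN1, FABP4 and ALB were at the floor on all 18 arrays, ADIPOQ reached 118 in SKMEL5 only, and APOA1 was at most 62 in any line. MITF, the melanocyte regulator named in the study's title, fell by 1.69 ± 0.05 at 6 h and by 1.17 ± 0.05 at 24 h in the mean over lines (adjusted p = 4.6e-07 and 2e-06). Small amounts of another line's transcripts were present on 3 DMSO arrays, at a median of 1.92% of the level of SKMEL5 on WM2664 6 h replicate 1, 0.8% of the SKMEL5 level on A375 6 h replicate 1 and 0.71% of the A375 level on WM2664 24 h replicate 2, and counts are also given without these 3 arrays. In bulk RNA a lower share of cells that express a gene and less of its RNA per cell cannot be told apart.

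After A-485, SREBF1 and SCD fell in every line at both times, FASN and LSS fell in every line by 24 h, and INSIG1 fell in SKMEL5 and WM2664 by 24 h, when its level in A375 was close to that in DMSO. TM7SF2 stood clearly above the floor only on the 24 h A-485 arrays, and STARD4, HMGCS1 and SC5D were modestly higher at 6 h in the mean over lines. In that mean, 5 of the 26 genes were called higher and 6 lower at 6 h, against 22.8% of all tested genes called higher and 16.4% lower. At 24 h, 4 were called higher and 10 lower, against 27% and 22.3% of all genes. The median difference of the 26 genes was 0.01 at 6 h and -0.11 at 24 h, beside 0.03 and 0.02 over all genes tested. At 6 h the counts were near the share over all genes, and at 24 h the lower calls were above it and the higher calls below it. The 4 higher calls at 24 h include TM7SF2, which passed the filter on dim genes only through the 24 h A-485 arrays, as do the higher calls of each line at 24 h below.

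Counts in single lines differed. At 6 h, 2 genes were called higher and 3 lower in SKMEL5 (all genes 12.9% and 10%), 3 higher and 5 lower in WM2664 (15.5% and 11.4%), and 2 higher and 3 lower in A375 (5.34% and 7.26%). At 24 h, 3 were called higher and 5 lower in SKMEL5 (21.2% and 16.3%), 1 higher and 12 lower in WM2664 (18.6% and 15.8%), and 2 higher and 6 lower in A375 (8.88% and 8.93%). Of these A-485 counts, the 12 lower calls in WM2664 at 24 h stood furthest above their background. Without the 3 DMSO arrays named above, the mean over lines had 2 genes higher and 4 lower at 6 h and 1 higher and 9 lower at 24 h, and WM2664 at 24 h had 1 higher and 8 lower. Leaving out single arrays moved the 6 h count of 11 to 7 without the SKMEL5 A-485 array and to 6 without the WM2664 A-485 array, and the WM2664 24 h count of 13 to 8 without DMSO replicate 1. Values not scaled between arrays shifted the median of all genes up by 0.27 at 6 h and 0.06 at 24 h in the mean over lines, and then 6 of the 26 genes were called higher and 2 lower at 6 h, and 2 higher and 5 lower at 24 h.

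**Figure D1:**
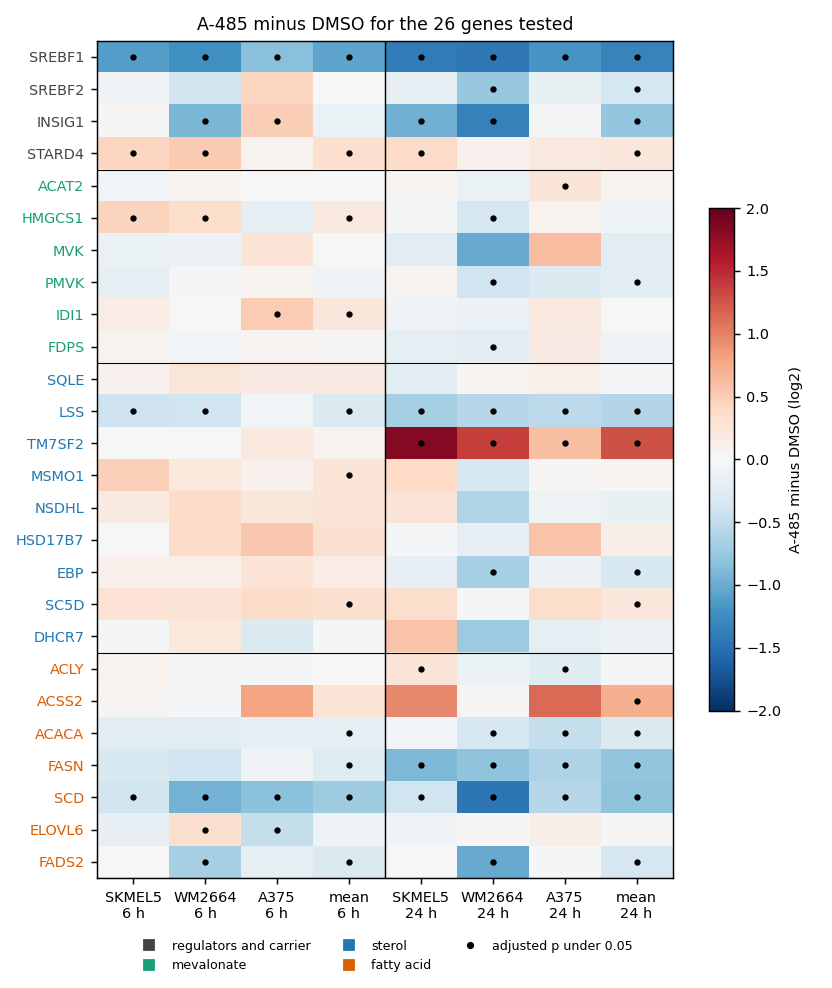
Differences between A-485 and DMSO on the log2 scale for the 26 tested genes (rows, grouped by branch) in SKMEL5, WM2664, A375 and their mean at 6 h and 24 h (columns), with the colour scale ending at -2 and 2 and dots at an adjusted p under 0.05. SREBF1 and SCD carry a dot and a negative value in all 8 columns, and INSIG1 is negative in WM2664 and not in A375 at 6 h.

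SREBF1 (chr17:17811334-17836986, GRCh38.p14), which encodes SREBP-1, had the largest fall of the regulators in the mean over lines. In SKMEL5 its scaled intensity was 224.3 and 223.9 in DMSO and 105 after A-485 at 6 h, and 353 and 294 against 123 at 24 h. In WM2664 it was 505 and 438 against 201 at 6 h, and 782 and 671 against 268 at 24 h. In A375 it was 218 and 188 against 113 at 6 h, and 432 and 421 against 188 at 24 h. Each A-485 array therefore lay below both DMSO arrays of its line and time, at 6 of 6 comparisons. SREBF1 fell by 1.10 ± 0.15 in SKMEL5, 1.23 ± 0.15 in WM2664 and 0.84 ± 0.15 in A375 at 6 h, and by 1.39, 1.44 and 1.18 at 24 h (adjusted p from 0.00027 to 0.0095). The mean over lines fell by 1.06 ± 0.09 at 6 h and by 1.34 ± 0.09 at 24 h (adjusted p = 6.8e-05 and 1.3e-05), called in 31 of 31 alternative settings at each time. The step from 6 h to 24 h in that mean, -0.28 ± 0.12, was not called (adjusted p = 0.15), and neither was the value of A375 minus the other lines at 24 h, 0.23 ± 0.18 (adjusted p = 0.42). The array's other SREBF1 probe set was above the floor on 1 array and gave no second reading.

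SREBF2 (chr22:41833105-41907305), which encodes SREBP-2, differed less. In WM2664 its intensity was 160 and 151 in DMSO and 121 after A-485 at 6 h, and 278 and 240 against 152 at 24 h. In SKMEL5 it was 92.9 and 85.3 against 85.1 at 6 h, and 68.6 and 65.5 against 60.1 at 24 h. In A375 it was 37.5 and 50.5 against 58.4 at 6 h, and 77.8 and 93.0 against 76.5 at 24 h. The A-485 array lay below both DMSO arrays in SKMEL5 and WM2664 at both times and in A375 at 24 h, narrowly so in SKMEL5 and A375, and above both in A375 at 6 h. SREBF2 fell by 0.76 ± 0.18 in WM2664 at 24 h (adjusted p = 0.015) and by 0.36 ± 0.11 in the mean over lines (adjusted p = 0.024). The call in the mean is fragile, since the value was -0.16 without the WM2664 24 h A-485 array and the 2 dimmer probe sets of the gene read 0.24 and -0.23. The difference at 6 h was 0.00 ± 0.11 in the mean.

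INSIG1 (chr7:155297878-155310235) encodes the endoplasmic reticulum protein that retains SREBPs and is itself a classic SREBP target. In WM2664 its intensity was 726 and 655 in DMSO and 368 after A-485 at 6 h, and 1033 and 1076 against 413 at 24 h. In SKMEL5 it was 319 and 256 against 292 at 6 h, inside the DMSO pair, and 325 and 346 against 173 at 24 h, well below it. In A375 it was 309.6 and 298 against 428 at 6 h, above the pair, and 845 and 865 against 836 at 24 h, just below it. INSIG1 fell by 0.91 ± 0.13 in WM2664 at 6 h (adjusted p = 0.0015). At 24 h it fell by 1.35 ± 0.13 in WM2664 and fell by 0.96 ± 0.13 in SKMEL5 (adjusted p = 0.00017 and 0.00082). In A375 it rose by 0.49 ± 0.13 at 6 h (adjusted p = 0.043), a call that held in 12 of 29 alternative settings, and differed by -0.03 ± 0.13 at 24 h (adjusted p = 0.99). The line difference itself was called. The response of A375 exceeded the mean of the other lines by 0.93 ± 0.16 at 6 h and 1.12 ± 0.16 at 24 h (adjusted p = 0.0076 and 0.0016), and SKMEL5 exceeded WM2664 by 0.94 ± 0.18 at 6 h (adjusted p = 0.027). The 6 h value for A375 was 0.47 without the WM2664 A-485 array and was then not called, and both 6 h differences lost their call without the 3 DMSO arrays. The mean over lines was -0.13 ± 0.07 at 6 h (adjusted p = 0.21) and -0.78 ± 0.07 at 24 h (adjusted p = 8.6e-05), and the step between the times was called (-0.65 ± 0.10, adjusted p = 0.0044). That step was -0.34 without the A375 A-485 array of 6 h and -0.37 without the WM2664 A-485 array of 24 h, and was then not called. The gene's 3 probe sets read -0.78, -0.81 and -0.82 at 24 h.

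STARD4, a cytosolic carrier that moves cholesterol between membranes, went the other way from SREBF1. Its intensity in SKMEL5 was 239 and 267 in DMSO and 339 after A-485 at 6 h, and 257 and 317 against 374 at 24 h. In WM2664 it was 227 and 239.7 against 334 at 6 h, and 280.4 and 279 against 297 at 24 h, while A375 had 154 and 155 against 161 at 6 h and 315 and 296 against 349 at 24 h. All 6 A-485 arrays were above both DMSO arrays of their line and time. STARD4 was called higher at 6 h in SKMEL5, by 0.43 ± 0.12, and in WM2664, by 0.52 ± 0.12 (adjusted p = 0.045 and 0.018), and in the mean over lines by 0.34 ± 0.07 at 6 h and 0.22 ± 0.07 at 24 h (adjusted p = 0.0074 and 0.034). The 24 h call held in 18 of 31 alternative settings, and the value was 0.14 without the SKMEL5 24 h A-485 array. The 6 h call ended without the WM2664 6 h A-485 array, with a value of 0.24, and without the 3 DMSO arrays.

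**Figure D2:**
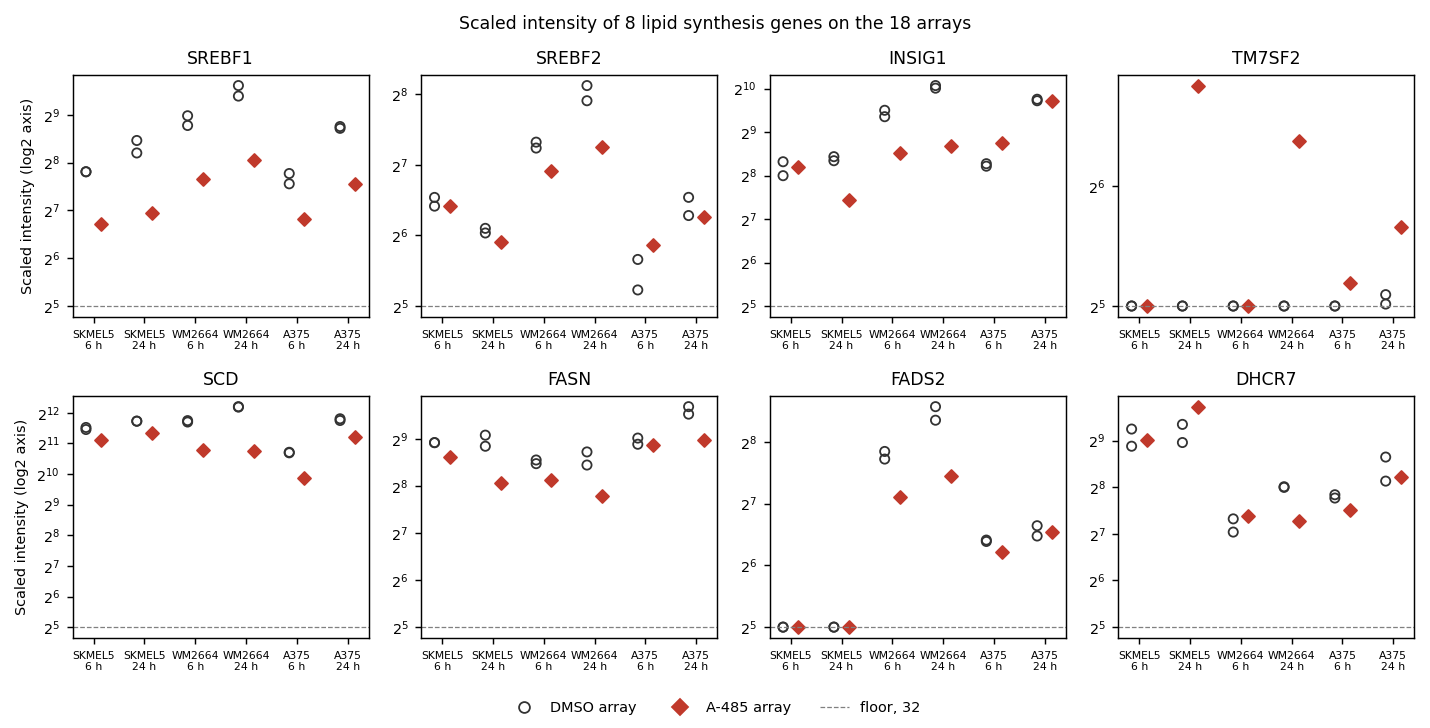
Scaled intensity on a log2 axis of SREBF1, SREBF2, INSIG1, TM7SF2, SCD, FASN, FADS2 and DHCR7 on each of the 18 arrays, by line and time, with open circles for DMSO, red diamonds for A-485 and a dashed line at the floor of 32. The A-485 array is the lowest of its group for SREBF1 and SCD at all 6 line and time pairs, and TM7SF2 leaves the floor clearly only on the 24 h A-485 arrays.

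The promoters of the 3 regulators and of SCD are shown because SREBF1 and SCD fell on every A-485 array, because INSIG1 differed between lines, and because SREBP binds a sterol regulatory element together with the factors NF-Y and Sp1. Each is the 250 bases before the RefSeq start on GRCh38.p14, in the direction of the gene, with capitals at the sterol regulatory element core TCACNCCAC, the NF-Y box CCAAT and the E-box CACGTG, searched on both strands. The Sp1 box GGGCGG was searched too and is left in lower case. The windows are chr17:17836987-17837236 on the minus strand for SREBF1, and on the plus strand chr22:41832855-41833104 for SREBF2, chr7:155297628-155297877 for INSIG1 and chr10:100346983-100347232 for SCD. Only SREBF2 was chosen for its motif, and the other 3 were chosen after their values were seen.
SREBF1: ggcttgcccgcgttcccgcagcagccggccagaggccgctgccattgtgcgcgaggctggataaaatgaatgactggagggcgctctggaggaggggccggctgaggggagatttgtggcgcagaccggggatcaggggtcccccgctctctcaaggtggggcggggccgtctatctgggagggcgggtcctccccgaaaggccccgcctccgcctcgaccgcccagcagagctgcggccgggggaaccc
SREBF2: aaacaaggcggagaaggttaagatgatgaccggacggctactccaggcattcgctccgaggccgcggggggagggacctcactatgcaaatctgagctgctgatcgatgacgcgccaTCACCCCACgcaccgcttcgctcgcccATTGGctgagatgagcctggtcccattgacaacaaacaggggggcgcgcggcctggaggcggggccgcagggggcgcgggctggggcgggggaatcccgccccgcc
INSIG1: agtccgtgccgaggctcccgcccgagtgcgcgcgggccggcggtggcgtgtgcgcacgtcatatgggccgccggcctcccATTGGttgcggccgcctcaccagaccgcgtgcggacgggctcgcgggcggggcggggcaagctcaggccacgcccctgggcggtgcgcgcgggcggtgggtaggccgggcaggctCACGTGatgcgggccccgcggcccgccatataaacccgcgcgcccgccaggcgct
SCD: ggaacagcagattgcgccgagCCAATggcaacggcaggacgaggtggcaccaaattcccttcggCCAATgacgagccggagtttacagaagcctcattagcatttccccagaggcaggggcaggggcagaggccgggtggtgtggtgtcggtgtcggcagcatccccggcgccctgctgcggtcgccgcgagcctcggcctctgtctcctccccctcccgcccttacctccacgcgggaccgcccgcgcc
SREBF2 held the element core at position -133 and an NF-Y box on the minus strand at -106, INSIG1 held an NF-Y box on the minus strand at -170 and an E-box at -55, and SCD held NF-Y boxes at -229 and -186, counted back from the start. The SREBF1 window held none of these 3 motifs, only Sp1 boxes. That window lies before the outermost start of SREBF1, and no start further inside the gene was searched. Of the 30 genes, 26 had an entry in the RefSeq promoter table, with 36 promoters in all. CCAAT was in 24 of these 36 promoters (66.67%) against 32.01% of all 35116 promoters of the table, and GGGCGG in 32 (88.89%) against 42.64%. TCACNCCAC was in 1 of 36 (2.78%) against 0.88%, and CACGTG in 3 (8.33%) against 6.34%. CCAAT was in 15 of 20 promoters of the mevalonate and sterol genes (75%) and in 6 of 12 of the fatty acid genes (50%). Some genes have several promoters with overlapping windows, so the same site can be counted more than once. This holds for the E-box of SC5D and the CCAAT boxes of SC5D and ACLY, and the promoters are not independent sequences. A match of letters is a description of the sequence and shows no binding.

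The mevalonate genes, which carry acetyl-CoA to farnesyl diphosphate, moved little. In the mean over lines 2 of the 6 tested were called higher and none lower by limma at 6 h, and none higher and 1 lower at 24 h, and at an unadjusted p under 0.05 these counts were the same. All genes stood at 22.8% higher and 16.4% lower at 6 h and 27% and 22.3% at 24 h, so 2 of 6 is near the background. HMGCS1, which makes the substrate of HMG-CoA reductase, was 412 and 432 in DMSO and 572 after A-485 in SKMEL5 at 6 h, and 371 and 344 against 457 in WM2664. It rose by 0.44 ± 0.08 and 0.35 ± 0.08 there (adjusted p = 0.0082 and 0.017), and differed by -0.19 ± 0.08 in A375 (adjusted p = 0.23). At 24 h HMGCS1 fell by 0.34 ± 0.08 in WM2664 (adjusted p = 0.017), so that the same line held a rise and a fall of this gene at different times. The mean over lines rose by 0.20 ± 0.05 at 6 h (adjusted p = 0.012) and was then not called without the SKMEL5 A-485 array, at 0.08, or without the WM2664 one, at 0.13. Its step from 6 h to 24 h was -0.31 ± 0.07 and the response of A375 stood below that of the other lines by 0.58 ± 0.10 at 6 h (adjusted p = 0.018 and 0.0098).

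The other mevalonate genes had small or unsteady differences. IDI1, the isopentenyl diphosphate isomerase, rose by 0.51 ± 0.13 in A375 and by 0.22 ± 0.07 in the mean at 6 h (adjusted p = 0.036 and 0.044). The latter call held in 10 of 31 alternative settings. The gene's other probe sets, from bright to dim, read 0.19, 0.09 and -0.07 in that mean, and the last was above the floor on only 13 of 18 arrays. PMVK, the phosphomevalonate kinase, fell by 0.39 ± 0.10 in WM2664 and by 0.21 ± 0.06 in the mean at 24 h (adjusted p = 0.019 in each), and the latter was -0.12 and not called without the WM2664 A-485 array. FDPS, which makes farnesyl diphosphate, fell by 0.23 ± 0.07 in WM2664 at 24 h (adjusted p = 0.042), and ACAT2, the first thiolase of the pathway, rose by 0.25 ± 0.07 in A375 at 24 h (adjusted p = 0.044). MVK, the mevalonate kinase, had the widest error of the 26 genes, as its -1.0 ± 0.59 in WM2664 at 24 h shows (adjusted p = 0.25).

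Of the 9 tested sterol genes, 2 were called higher and 1 lower at 6 h in the mean over lines, close to the shares over all genes (22.8% and 16.4%). At 24 h 2 were called higher and 2 lower, beside 27% and 22.3% of all genes. The higher calls at 24 h include TM7SF2, which was among the tested genes only through its 24 h A-485 arrays. LSS (chr21:46188446-46228774), which closes squalene epoxide to lanosterol, fell in all lines by 24 h. Its intensity in SKMEL5 was 346 and 307 in DMSO and 244 after A-485 at 6 h, and 367 and 408 against 243 at 24 h. In WM2664 it was 612 and 608 against 463 at 6 h, and 689 and 651 against 451 at 24 h, and in A375 349 and 339.7 against 329.8 at 6 h and 484 and 460.1 against 329 at 24 h. Every A-485 array was below its DMSO pair, narrowly so in A375 at 6 h. LSS fell by 0.42, 0.40 and 0.06 at 6 h and by 0.67, 0.57 and 0.52 at 24 h in SKMEL5, WM2664 and A375 (each ± 0.10), and all but the A375 6 h value, with an adjusted p of 0.82, were called. The mean over lines fell by 0.29 ± 0.06 at 6 h and 0.59 ± 0.06 at 24 h (adjusted p = 0.0042 and 8.7e-05), though the 6 h value turned to 0.03 in values not scaled between arrays.

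TM7SF2 (chr11:65111872-65116230), a sterol C14-reductase of the endoplasmic reticulum, appeared after treatment. It was at the floor of 32 on all DMSO arrays of SKMEL5 and WM2664 and on their A-485 arrays at 6 h, and reached 114 in SKMEL5 and 83.1 in WM2664 after 24 h of A-485. In A375 the DMSO arrays were at 32 and 32 at 6 h and 32.4 and 34.2 at 24 h, and the A-485 arrays at 36.5 and 50.4. The 24 h A-485 arrays of all lines stood above their DMSO pairs. The difference at 24 h was at least 1.83 in SKMEL5, at least 1.38 in WM2664 and 0.60 in A375, and at least 1.27 in the mean over lines. These are given as a description, with no test. The gene's mean log2 was 5.23 against a filter of 5.06, and 5.02 without the 24 h A-485 arrays, so it was among the tested genes only through the group where it was high, and values at the floor do not vary.

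The remaining sterol genes differed by less. SC5D, the lathosterol oxidase, rose by 0.31 ± 0.07 at 6 h and 0.22 ± 0.07 at 24 h in the mean over lines (adjusted p = 0.0088 and 0.03), without a call in any single line. MSMO1, the sterol C4-methyl oxidase, rose by 0.26 ± 0.09 at 6 h in the mean (adjusted p = 0.047), held in 14 of 31 alternative settings, with a value of 0.14 and no call without the SKMEL5 A-485 array. EBP, the sterol isomerase, fell by 0.67 ± 0.17 in WM2664 and by 0.32 ± 0.10 in the mean at 24 h (adjusted p = 0.019 and 0.031), and the latter was -0.14 and not called without the WM2664 A-485 array. The gene's next brightest probe set, above the floor on all 18 arrays, read -0.29 in WM2664 and -0.07 in the mean at 24 h. SQLE, the squalene epoxidase and a rate-limiting step, was not called in any line, with 0.17 ± 0.09 at 6 h and -0.02 ± 0.09 at 24 h in the mean (adjusted p = 0.18 and 0.84). NSDHL and HSD17B7, which act together in C4-demethylation, were not called in any A-485 comparison.

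DHCR7 (chr11:71427287-71449043), the last reductase before cholesterol, pointed in opposite directions in SKMEL5 and WM2664. At 24 h its intensity was 651 and 497 in DMSO and 847 after A-485 in SKMEL5, 255 and 258 against 155 in WM2664, and 401 and 280.3 against 296 in A375. At 6 h it was 471 and 607 against 519 in SKMEL5, 131 and 160 against 168 in WM2664, and 218 and 229 against 183 in A375. The 24 h A-485 array lay above its pair in SKMEL5, below it in WM2664 and inside it in A375. Neither single difference was called (0.57 ± 0.25 and -0.72 ± 0.25, adjusted p = 0.12 and 0.06), while the difference between them was (1.30 ± 0.36, adjusted p = 0.049), a call that held in 10 of 28 alternative settings. The gene's dimmer probe set, above the floor on all 18 arrays, held the 2 lines less far apart. At 24 h it read 0.22 in SKMEL5, -0.28 in WM2664 and -0.47 in A375.

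Of the 7 tested fatty acid genes, limma called none higher and 4 lower at 6 h in the mean over lines, and 1 higher and 4 lower at 24 h, as it did at an unadjusted p under 0.05. Over all genes 16.4% were lower at 6 h and 22.3% at 24 h. SCD (chr10:100347233-100364826), the desaturase that makes oleate from stearate, fell everywhere. Its intensity in SKMEL5 was 2939 and 2806 in DMSO and 2219 after A-485 at 6 h, and 3393 and 3387 against 2581 at 24 h. In WM2664 it was 3325 and 3432 against 1752 at 6 h, and 4659.6 and 4708 against 1725 at 24 h, and in A375 1676 and 1656 against 940.4 at 6 h, and 3442 and 3578 against 2357 at 24 h. All 6 A-485 arrays were below their DMSO pairs, furthest in WM2664. SCD fell by 0.37 and 0.39 in SKMEL5, 0.95 and 1.44 in WM2664, and 0.82 and 0.57 in A375 at 6 h and 24 h (each ± 0.06, adjusted p from 3.1e-06 to 0.0043). In the mean over lines SCD fell by 0.71 ± 0.04 at 6 h and 0.80 ± 0.04 at 24 h (adjusted p = 5.3e-06 and 2.1e-06), called in 31 of 31 alternative settings. The fall in WM2664 exceeded that in SKMEL5 by 0.58 ± 0.09 at 6 h and 1.05 ± 0.09 at 24 h (adjusted p = 0.0099 and 0.00022). The gene's 3 dimmer probe sets read -1.22, -1.15 and -1.17 at 24 h in the mean, a larger fall than the brightest one, and -0.62, -0.53 and -0.68 at 6 h.

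FASN (chr17:82078338-82098236), the fatty acid synthase that builds palmitate, fell later. At 24 h its intensity was 461 and 543 in DMSO and 267 after A-485 in SKMEL5, 424 and 349 against 221 in WM2664, and 739.6 and 826 against 509 in A375. At 6 h it was 486 and 486 against 391 in SKMEL5, 356 and 376 against 278 in WM2664, and 519.6 and 474 against 473 in A375. The 24 h A-485 arrays lay clearly below their pairs, and the 6 h array of A375 sat beside the lower DMSO value. FASN fell at 24 h by 0.91, 0.80 and 0.62 in SKMEL5, WM2664 and A375 (each ± 0.14, adjusted p = 0.0018, 0.0036 and 0.021), while no line was called at 6 h. The A375 call ended without DMSO replicate 2 of 24 h, with -0.54. In the mean over lines FASN fell by 0.26 ± 0.08 at 6 h and by 0.78 ± 0.08 at 24 h (adjusted p = 0.038 and 0.00016). The 24 h call held in 31 of 31 alternative settings, whereas the 6 h value turned to 0.06 without scaling. The step between the times was -0.52 ± 0.12 (adjusted p = 0.018), which was -0.42 without the A375 6 h A-485 array and -0.45 without the SKMEL5 24 h one, not called in either case.

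Other genes of the fatty acid branch were uneven. ACACA, the acetyl-CoA carboxylase that makes malonyl-CoA, fell by 0.20 ± 0.06 at 6 h and 0.29 ± 0.06 at 24 h in the mean over lines (adjusted p = 0.039 and 0.0058), and the 6 h value turned to 0.12 without scaling. The 24 h value was -0.20 and not called without the A375 A-485 array. ACSS2, which makes acetyl-CoA from acetate, was the only fatty acid gene called higher in the mean, by 0.71 ± 0.21 at 24 h (adjusted p = 0.022). Its intensity at 24 h was 205 and 146 in DMSO and 338 after A-485 in SKMEL5, 412 and 401 against 415 in WM2664, and 45.2 and 91.5 against 140.5 in A375, above each pair but barely so in WM2664. No single line was called (adjusted p = 0.068 in SKMEL5 and in A375), and the mean was 0.50 and not called without the A375 A-485 array, and 0.58 and not called without the SKMEL5 one. ACLY, which makes acetyl-CoA from citrate, rose by 0.27 ± 0.06 in SKMEL5 and fell by 0.25 ± 0.06 in A375 at 24 h (adjusted p = 0.013 and 0.033). ELOVL6, which elongates palmitate, rose by 0.32 ± 0.09 in WM2664 and fell by 0.48 ± 0.09 in A375 at 6 h (adjusted p = 0.027 and 0.01), and the response of A375 stood below that of the other lines by 0.56 ± 0.11 (adjusted p = 0.013).

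FADS2 (chr11:61816203-61867354), the delta-6 desaturase of polyunsaturated fatty acids, could be read in WM2664 and A375 only, because all 6 SKMEL5 arrays were at the floor. In WM2664 its intensity was 230.0 and 211 in DMSO and 139 after A-485 at 6 h, and 327 and 380.3 against 175 at 24 h. In A375 it was 85 and 83.7 against 74.1 at 6 h, and 99.9 and 89.0 against 92.8 at 24 h. WM2664 lay below its pair at both times, while A375 was slightly below at 6 h and inside the pair at 24 h. FADS2 fell in WM2664 by 0.67 ± 0.11 and 1.01 ± 0.11 (adjusted p = 0.0029 and 0.00031), and differed by -0.19 ± 0.11 and -0.02 ± 0.11 in A375 (adjusted p = 0.35 and 1). The falls called in the mean, 0.29 ± 0.06 at 6 h and 0.34 ± 0.06 at 24 h, rested on WM2664, as they were -0.09 and -0.01 without its A-485 arrays. The gene's other probe set, near the floor, read 0 in WM2664 at 24 h.

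The sterol and fatty acid branches were set side by side by their medians, 15 mevalonate and sterol genes against 7 fatty acid genes, as a description without a test. At 6 h the sterol median was 0.07, 0.10 and 0.16 in SKMEL5, WM2664 and A375, and the fatty acid median -0.16, -0.23 and -0.16. At 24 h the sterol median was -0.03, -0.32 and 0.10, and the fatty acid median -0.06, -0.34 and -0.25. The sterol genes stood above the fatty acid genes in all 6 pairs of medians. The gap was 0.23, 0.33 and 0.33 at 6 h and 0.03, 0.02 and 0.35 at 24 h. Between DMSO replicates the sterol minus fatty acid value had a standard deviation (SD) of 0.10. That SD describes DMSO arrays and not differences between A-485 and DMSO, so it does not measure the error of a gap. The gaps in SKMEL5 and WM2664 at 24 h were the smallest of the 6. In the mean over lines the gap was 0.35 at 6 h and 0.21 at 24 h. With probe sets that may cross-hybridise left out it was 0.14 and -0.03. The 24 h gap was 0.09 without the WM2664 A-485 array and 0.11 without the A375 one. In WM2664 at 24 h the order of the branches turned with those probe sets left out. It also turned with only genes of a mean log2 of 7 or more.

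**Figure D3:**
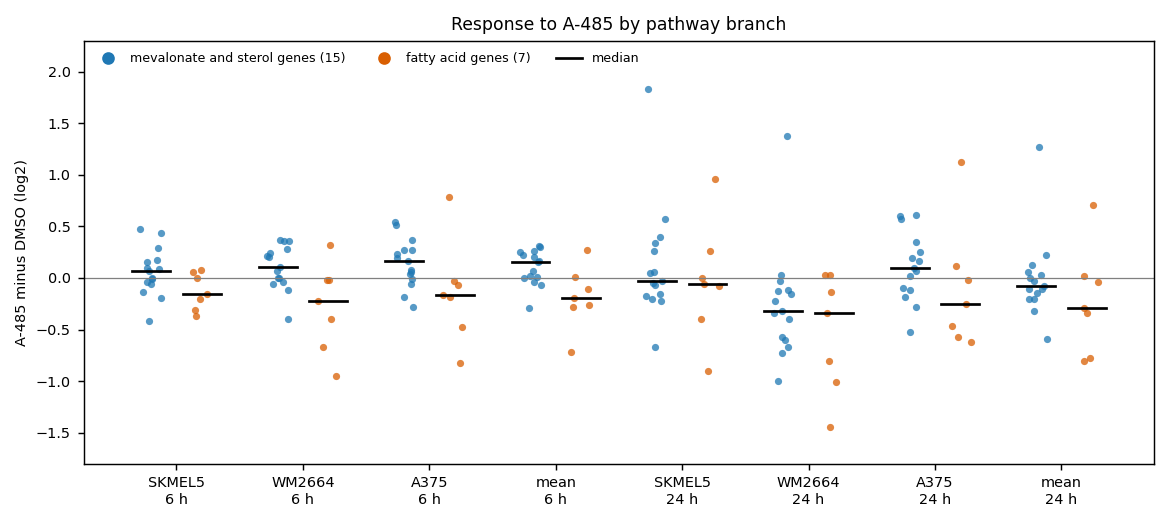
Differences between A-485 and DMSO on the log2 scale of the 15 mevalonate and sterol genes and the 7 fatty acid genes in each line and time, 1 point a gene, with bars at the medians. The medians of the branches differ by 0.35 in A375 at 24 h and by 0.02 in WM2664 at 24 h, with points of the branches overlapping throughout.

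Responses of the 26 genes differed between lines and times for some members only. For A375 against the mean of the other lines, 1 gene was called higher and 2 lower at 6 h (all genes 5.34% and 6.05%) and 5 higher and 2 lower at 24 h (12.4% and 12.2%). The 2 lower at 24 h were ACLY and TM7SF2, the latter among the tested genes only through its 24 h A-485 arrays. For SKMEL5 against WM2664, 3 were called higher and none lower at 6 h (2.68% and 2.43%), and 5 higher and none lower at 24 h (7.43% and 7.01%), where limma gave 1 and 0 lower at an unadjusted p under 0.05. The SKMEL5 minus WM2664 calls at 24 h were SCD, FADS2, DHCR7, TM7SF2 and ACLY, named after their values were seen, with TM7SF2 among the tested genes only through these arrays and FADS2 bounded by the floor in SKMEL5. Without the 3 DMSO arrays, the 3 calls of 6 h became 1 and the 5 calls of 24 h became 3. The SKMEL5 minus WM2664 count at 6 h was also 1 without WM2664 DMSO replicate 1 alone. Between the times, the mean response at 24 h stood above that at 6 h in 1 gene, TM7SF2, which entered the test only through its 24 h A-485 arrays, and below it in 4, INSIG1, FASN, HMGCS1 and LSS (9.35% and 11%). That count of 5 was 2 without the A375 6 h A-485 array, 3 without the WM2664 24 h one and 8 without the A375 24 h one.

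In DMSO the lines differed widely in these genes, as in genes at large. For A375 against the mean of the other lines, 9 of the 26 were called higher and 7 lower (all genes 41% and 35.8%), and for SKMEL5 against WM2664, 5 were higher and 14 lower (34.3% and 31.2%). Levels are geometric means over the 4 DMSO arrays of a line. FADS2 was at the floor of 32 in SKMEL5, 279 in WM2664 and 89.2 in A375, so SKMEL5 minus WM2664 was -3.12 ± 0.06 at the least (adjusted p = 2.5e-09). ELOVL6 was 766 in A375 against 230.4 in SKMEL5 and 218 in WM2664, a difference of 1.77 ± 0.04 (adjusted p = 4.2e-09), and the A375 arrays did not overlap those of the other lines. EBP was 1161 in A375 against 522 and 405 (1.34 ± 0.09, adjusted p = 1.6e-06). ACSS2 was 55.0 in A375 against 169.7 and 367 (-2.18 ± 0.18, adjusted p = 6.8e-06), with no overlap either. NSDHL was also higher in A375 (0.77 ± 0.14, adjusted p = 0.00098).

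The regulators and carriers were highest in WM2664 with 1 exception. SREBF1 was 584 in WM2664 against 269 in SKMEL5 and 294 in A375, and SKMEL5 was lower than WM2664 by 1.12 ± 0.09 (limma difference -1.12, adjusted p = 7.7e-06). SREBF2 was 200.3 in WM2664 against 77.2 and 60.8 (SKMEL5 minus WM2664 -1.37 ± 0.11, adjusted p = 7.7e-06). INSIG1 was 853 in WM2664 against 309.6 and 509 (-1.46 ± 0.07, adjusted p = 5.7e-07). STARD4, the exception, had levels of 269, 255 and 217 in SKMEL5, WM2664 and A375, and SKMEL5 and WM2664 did not differ beyond their spread (0.07 ± 0.07, adjusted p = 0.41). The reverse order was seen for DHCR7, at 552 in SKMEL5 and 193 in WM2664 (1.52 ± 0.15, adjusted p = 3e-05). SCD had levels of 3120.1, 3978 and 2418 in the same order of lines, but the order of SKMEL5 and WM2664 turned with the mean of all probe sets of the gene (0.46 in place of -0.35).

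**Figure D4:**
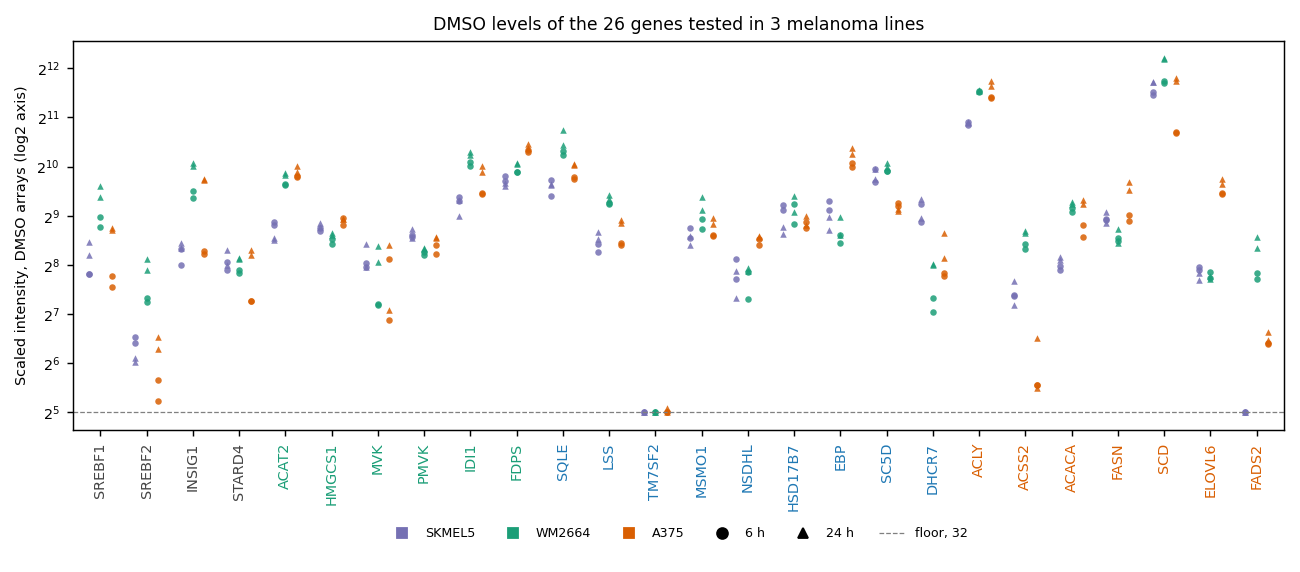
Scaled intensity on a log2 axis of the 26 genes on the 12 DMSO arrays, coloured by line, with circles for 6 h and triangles for 24 h. FADS2 lies at the floor in SKMEL5, ELOVL6 and EBP are highest in A375, and SREBF1, SREBF2 and INSIG1 are highest in WM2664 by their means.

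Time in DMSO moved genes of this list as well. In the mean over lines, 11 of the 26 were called higher at 24 h than at 6 h and none lower, against 6.93% and 6.8% of all genes, and without the 3 DMSO arrays 4 were higher and none lower. At an unadjusted p under 0.05 limma still gave 16 higher and 0 lower, and 12 higher and 0 lower without those arrays. By line, 2 were higher and 1 lower in SKMEL5 (4.11% and 3.83%), 3 higher and none lower in WM2664 (0.869% and 0.707%), and 9 higher and none lower in A375 (1.36% and 0.953%). No member was lower at an unadjusted p under 0.05 in WM2664 or A375, where limma then gave 11 and 15 higher. In A375, INSIG1 rose by 1.49 ± 0.10, SCD by 1.08 ± 0.05, SREBF1 by 1.07 ± 0.12, STARD4 by 0.99 ± 0.10 and SREBF2 by 0.97 ± 0.15 (adjusted p = 0.0012, 0.00022, 0.0074, 0.0054 and 0.024). Of the 13008 genes only 12 were called higher by at least 1 in A375 over this time, INSIG1, SCD and SREBF1 among them. The further calls in A375 were FASN (0.65), ACACA (0.59), LSS (0.45) and ACLY (0.28). In WM2664 the calls were FADS2 (0.68 ± 0.09), INSIG1 (0.61 ± 0.10) and SCD (0.47 ± 0.05), and in SKMEL5 SREBF1 (0.52 ± 0.12) and SCD (0.24 ± 0.05), with ACAT2 lower (-0.32 ± 0.06). The A-485 differences at 24 h are taken from these higher DMSO levels, and they share the DMSO arrays with this comparison.

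These counts rested on few arrays. Without the 3 DMSO arrays, limma called 1 gene in A375 and 0 in SKMEL5 and in WM2664. At an unadjusted p under 0.05 it then gave 11 higher in A375, 7 higher in WM2664, and 3 higher and 4 lower in SKMEL5. Leaving out single arrays left 5 calls in A375 without A375 6 h replicate 1 or 2 or WM2664 6 h replicate 1 or 2, and 4 without A375 24 h replicate 2. In SKMEL5 no call was left without 6 h replicate 1, 6 h replicate 2 or 24 h replicate 2, and in WM2664 1 call was left without 6 h replicate 2.

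**Figure D5:**
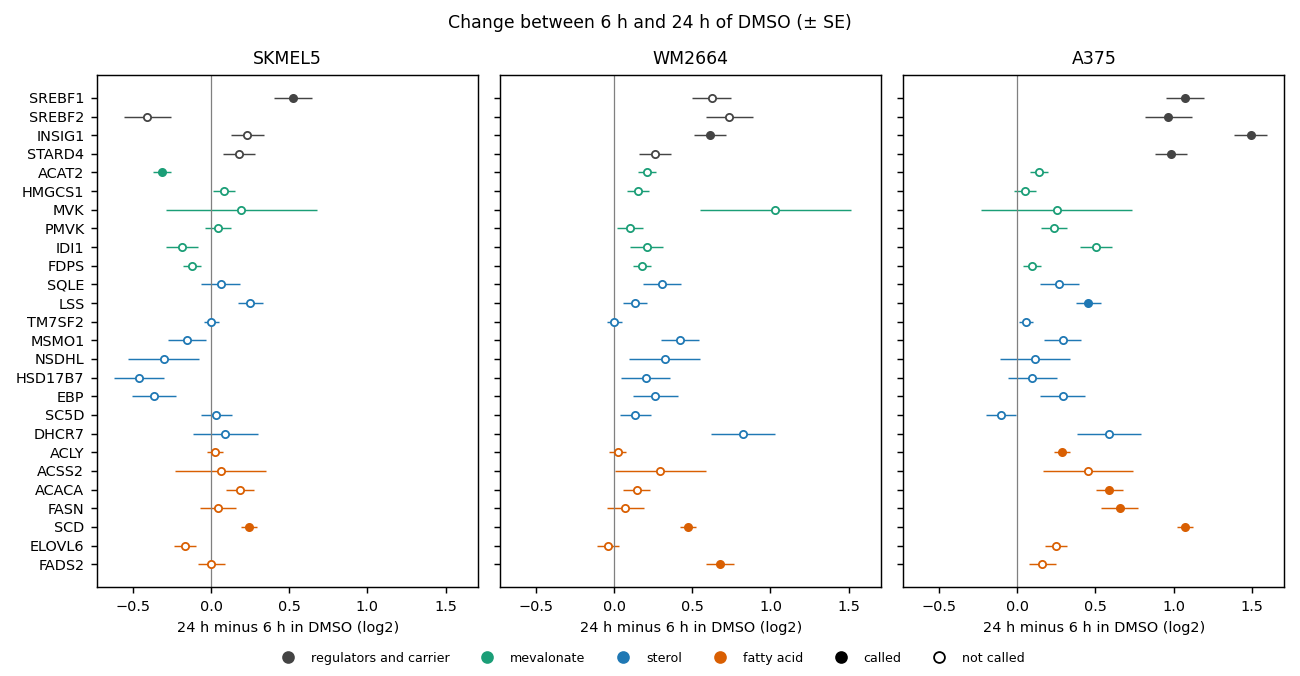
Difference between 24 h and 6 h in DMSO on the log2 scale for each of the 26 genes in SKMEL5, WM2664 and A375, with bars of 1 SE and filled symbols for an adjusted p under 0.05. INSIG1, SCD and SREBF1 in A375 lie above 1, and no filled symbol lies below 0 apart from ACAT2 in SKMEL5.

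Genes of the same pathways outside the list were counted in groups, in the mean over lines. Of 4 tested genes of SREBP control, 1 was called higher at 6 h and 4 at 24 h, with none lower by limma, nor at an unadjusted p under 0.05. At 24 h MBTPS1, the protease that makes the first cut of SREBPs, rose by 0.66 ± 0.04, INSIG2 by 0.54 ± 0.04 and SCAP, the SREBP escort, by 0.31 ± 0.07 (adjusted p = 8.8e-06, 2.6e-05 and 0.007). The SCAP call ended without the WM2664 A-485 array, at 0.24. INSIG2 rose while its paralogue INSIG1 fell. Of 6 tested genes of sterol supply and uptake, 1 was lower at 6 h, and 1 was higher and 4 lower at 24 h. TMEM97, a regulator of NPC1, differed by -0.02 ± 0.05 at 6 h (adjusted p = 0.82) and fell by 0.73 ± 0.05 at 24 h (adjusted p = 2.7e-05). That fall lay in SKMEL5 (736 and 756 in DMSO against 325) and WM2664 (1221 and 1210 against 642), with little change in A375 (1199 and 1128 against 1108). GGPS1 rose by 0.43 ± 0.07 at 24 h (adjusted p = 0.0018), and SOAT1, which esterifies cholesterol, fell by 0.21 ± 0.07 and 0.22 ± 0.07 (adjusted p = 0.046 and 0.032), its 6 h value turning to 0.07 without scaling. Without the WM2664 A-485 arrays SOAT1 was -0.088 and -0.14, not called at either time.

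Of 5 tested genes of the liver X receptor and of efflux, 1 was higher and 2 lower at 6 h, and 1 was higher and 1 lower at 24 h. ABCA1, the cholesterol exporter, fell by 1.28 ± 0.06 at 6 h and differed by -0.09 ± 0.06 at 24 h (adjusted p = 6e-06 and 0.31). MYLIP, the ligase that degrades the LDL receptor, fell by 0.97 ± 0.09 and 1.27 ± 0.09 (adjusted p = 0.00013 and 2.1e-05). In A375 MYLIP did not fall at 6 h, with 167 and 183.5 in DMSO and 184.4 after A-485, and was 197 and 184.2 against 135.6 at 24 h. NR1H3, which encodes liver X receptor alpha, rose by 0.50 ± 0.12 at 24 h (adjusted p = 0.011), which was 0.071 and not called without the SKMEL5 A-485 array. ABCA1, MYLIP and SREBF1 are known targets of that receptor, but not every gene of this list moved with them. For LPCAT3, also on the list, the 6 h A-485 array lay above both DMSO arrays in each line. It was 80.3 against 70.4 and 55.7 in SKMEL5, 93.8 against 69.5 and 54.3 in WM2664, and 176 against 141 and 160 in A375. At 24 h it was 99.4 against 51.9 and 67.5 in SKMEL5 and 127 against 102 and 96.9 in WM2664. In A375 at 24 h LPCAT3 lay below both DMSO arrays, at 181 against 224 and 230. Whether the receptor had a part in any of these differences was not tested.

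Of 12 tested genes of fatty acid supply and elongation, 1 was higher and 3 lower at 6 h, and 2 higher and 4 lower at 24 h. MID1IP1, an activator of acetyl-CoA carboxylase, fell by 0.91 ± 0.14 at 6 h and fell by 1.35 ± 0.14 at 24 h (adjusted p = 0.0014 and 0.00013). At 24 h it moved less in A375 (387 and 503 in DMSO against 366) than in SKMEL5 (629 and 736 against 169) and WM2664 (372 and 445 against 119). FADS3 fell by 0.56 ± 0.06 and 0.44 ± 0.06, the latter -0.046 and not called without the A375 A-485 array. ELOVL7, an elongase, rose by 0.62 ± 0.06 and 0.56 ± 0.06. It was at the floor on every WM2664 array, and its A375 DMSO arrays were near the floor, from 36.1 to 57.9. Of 8 genes of esterification and storage, limma called none higher and 4 lower at 6 h (1 and 5 at an unadjusted p under 0.05), and 2 higher and 5 lower at 24 h. PLIN2, the coat protein of lipid droplets, fell by 0.79 ± 0.04 and 0.50 ± 0.04. At 24 h its lines went apart, with 1.38 lower in A375, where intensity was 3871 and 4080.2 in DMSO and 1531 after A-485, and 0.24 higher in SKMEL5, where it was 736 and 673 against 832 (each ± 0.07, adjusted p = 1.3e-05 and 0.031). Without the A375 A-485 array the 24 h mean of PLIN2 was -0.056 and not called. ACSL1 fell by 0.30 ± 0.05 and 0.83 ± 0.05, its 6 h call ending at -0.21 without the WM2664 A-485 array, and LPIN1 by 0.37 ± 0.05 and 0.67 ± 0.05. In A375 ACSL1 was 667 and 602 in DMSO against 592 at 24 h, and LPIN1 was 364.4 and 341 against 353 at 6 h, inside its pair. Of 7 genes of fatty acid breakdown, 1 was higher and 1 lower at 6 h, and 3 higher and 1 lower at 24 h. CPT2, the inner carnitine transferase of mitochondria, rose by 0.51 ± 0.07 and 0.65 ± 0.07. ACADVL rose by 0.55 ± 0.05 at 24 h, though in A375 it was inside its DMSO pair (1146 and 1031 against 1120). CPT1A fell by 0.14 ± 0.03 and 0.31 ± 0.03. For CPT1A these means rested on WM2664, which fell by 0.49 and 0.89 (each ± 0.06), while SKMEL5 was at the floor on all 6 arrays and A375 differed by 0.07 and -0.04. Without the WM2664 A-485 array CPT1A was 0.034 at 6 h and -0.023 at 24 h, neither called, and its 6 h value also turned to 0.05 without scaling. These shares stand beside the 22.8% and 16.4% of all genes called higher and lower at 6 h and the 27% and 22.3% at 24 h.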

How the data were processed

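RNA of 18 samples was read on 1 array each. The values the authors deposited are linear intensities, 1 for each probe set of an array. Which software made them, and with what background correction or scaling, is not given in the sources used here. On each array 19.3% to 22.9% of intensities were below 0, and array medians ran from 19.5 to 29.0. Per the labels' protocols, total RNA was purified on RNeasy columns and labelled with an Affymetrix 3' IVT Plus kit.

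Of 54613 probe sets, 41091 carried 1 gene symbol, 1801 several and 11721 none in the platform annotation, and 41037 symbols were updated by Entrez identifier. Intensities were quantile normalized on the linear scale, values under a floor of 32 were raised to it, and log2 values were used. The brightest probe set stood for each gene, and genes with a mean log2 below 5.06 (the 40th percentile over probe sets with 1 symbol) were dropped. Quantile normalization hides a shift shared by most genes, and the floor compresses differences of dim genes. A group-means model of 12 groups was fitted with limma 3.58.1 in R 4.3.3, with 6 residual degrees of freedom and 1.80 from moderation, and p-values were adjusted by Benjamini-Hochberg over all genes of a comparison. The model was tested on simulated data. The median SE was 0.14 for a line and time and 0.08 for a mean over lines, and the number of arrays limits precision.

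Samples were grouped by their titles. The members, lists and tests were chosen with earlier results of these data known. Arrays were described one by one for SREBF1, SREBF2 and INSIG1, for members called in the mean over lines at 1 or more on the log2 scale, and for members whose response differed between lines by 1 or more; STARD4, HMGCS1, LSS, FASN and ACSS2 were added after their values were seen. Up to 3 genes of each other list were named by their largest called difference. Alternatives changed the floor, scaling, filter, probe set choice, moderation and model, and left out arrays. Promoters are from a RefSeq table on GRCh38.p14.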

Additional observations from a re-analysis of the deposited data

Results flagged for a closer look

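Results are listed here because the response to A-485 differed between lines or times by a test of the difference itself (limma, adjusted p under 0.05, log2 scale), and no explanation was tested. Between 24 h and 6 h of the mean response, the differences were 1.21 for TM7SF2, -0.65 for INSIG1, -0.52 for FASN, -0.31 for HMGCS1 and -0.29 for LSS. Where A375 was set against the mean of SKMEL5 and WM2664, they were 0.93 for INSIG1, -0.58 for HMGCS1 and -0.56 for ELOVL6 at 6 h. At 24 h they were 1.12 for INSIG1, -1.01 for TM7SF2, 0.48 for FADS2, 0.37 for FDPS, 0.34 for SCD, -0.31 for ACLY and 0.29 for ACAT2.

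For SKMEL5 minus WM2664 at 6 h the differences were 0.94 for INSIG1, 0.67 for FADS2 and 0.58 for SCD. At 24 h they were 1.30 for DHCR7, 1.05 for SCD, 1.01 for FADS2, 0.46 for TM7SF2 and 0.41 for ACLY. FADS2 was at the floor on every SKMEL5 array, so its response there could not be below 0, and TM7SF2 was at the floor on all DMSO arrays of SKMEL5 and WM2664 and entered the test only through its 24 h A-485 arrays, so its values are a description. Without the WM2664 24 h A-485 array, the A375 values at 24 h turned to -0.18 for SCD and -0.02 for FADS2.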

How the results depend on the processing

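Of 532 results on the members, recomputed under 13 other settings and with each of 18 arrays left out, 33 values reversed. SREBF1 and SCD at both times and INSIG1 and FASN at 24 h, all in the mean over lines, kept their calls under all 31. Counts below are members called, a gap is the sterol minus the fatty acid median, and the cause was not tested for any change.

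Values left unscaled between arrays (floor 32) gave 2 and 4 in SKMEL5 at 6 h and 24 h (scaled 5 and 8), 3 and 3 in WM2664 (8 and 13), 0 and 0 in A375 (5 and 8) and 7 in the mean at 24 h (14). The line and time differences then gave 0 or 1 (3 to 7), and DMSO time gave 0 in the mean, SKMEL5 and WM2664 and 3 in A375 (11, 3, 3 and 9). Values as deposited with a floor of 1 gave 0 and 0 in SKMEL5, 1 and 1 in WM2664, 0 and 0 in A375, 5 and 4 in the mean (11 and 14), 0 for the line and time differences, and 0, 0, 0 and 1 for DMSO time. For these counts of 0, and for those below, limma gave 0 to 10 members at an unadjusted p under 0.05. Under both, LSS turned to 0.12 in WM2664 and 0.028 in the mean at 6 h and to 0.0295 in A375 DMSO minus the other lines, and FDPS to 0.10 in WM2664 at 24 h. The 6 h means turned to 0.12 for ACACA, 0.065 for FASN, 0.054 for CPT1A and 0.073 for SOAT1. At the floor of 1 FADS2 also turned, to -0.61 and -0.25 for SKMEL5 minus WM2664 and to 0.43 in A375 DMSO. Median scaling turned ACLY to -0.16 at 6 h and gave 4 and 3 for the line differences at 24 h (7 and 5).

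Without the 3 DMSO arrays named in the report, counts were 3 in SKMEL5, 5 in WM2664 and 1 in A375 at 6 h, 4 in A375 at 24 h and 6 in the mean at 6 h. The line differences gave 1 and 1 at 6 h and 4 and 3 at 24 h, DMSO time 4, 0, 0 and 1, and the gap in A375 at 6 h was 0.21. The mean of all probe sets gave 4 in WM2664 and 7 in the mean at 6 h, 1 for DMSO time in SKMEL5, gaps of 0.22 in WM2664 at 6 h and 0.039 in the mean at 24 h, and 0.46 for SCD in SKMEL5 minus WM2664 in DMSO. A floor of 16 gave a gap of 0.43 in WM2664 at 6 h, 2 for SKMEL5 minus WM2664 at 24 h and 1 for DMSO time in WM2664, and a floor of 64 gave 6 there. Only genes with a mean log2 of 7 or more gave gaps of -0.088 in WM2664 and 0.075 in the mean at 24 h.

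With _s_at and _x_at probe sets set aside where a gene had another, some genes were read by dim probe sets. FADS2 was then 0 in WM2664 and 0.069 in the mean at 24 h, -0.21 for A375 minus the other lines, and -0.27 and -0.32 for DMSO time in the mean and WM2664. SREBF2 became 0.24 in the mean at 24 h, IDI1 -0.066 in the mean at 6 h and 0.20 for SKMEL5 minus WM2664 in DMSO, the gaps -0.15 in WM2664 at 24 h, 0.20 in A375 at 6 h, and 0.14 and -0.033 in the mean at 6 h and 24 h, and SKMEL5 minus WM2664 at 24 h gave 3. The additive model gave 6 and 6 in the mean (11 and 14), and no filter gave 9 at 24 h. With the replicate block A375 at 6 h gave 3 in place of 5, but the 15 pair correlations of -0.04 to 0.06 give no sign that the numbers pair samples.

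With 1 array left out, counts ran from 3 to 5 in SKMEL5, 5 to 8 in WM2664 and 3 to 5 in A375 at 6 h, and 8 to 13 in WM2664 and 5 to 8 in A375 at 24 h. The mean at 6 h ran from 6 to 11, the time difference from 2 to 8, the line differences from 2 to 5 and 1 to 3 at 6 h and 4 to 7 at 24 h, and DMSO time from 0 to 3, 1 to 4 and 4 to 10. The gap ran from 0.21 to 0.33 in A375 at 6 h and from 0.093 to 0.28 in the mean at 24 h, CPT1A at 6 h from -0.25 to 0.034, the SCD time difference from -0.29 to 0.23, and A375 minus the other lines at 24 h from -0.18 to 0.87 for SCD and -0.023 to 0.98 for FADS2.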
